A study of Homo sapiens with 12 samples.

Results

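The genes described here are those of the count table whose symbols mark splicing factors and RNA helicases: SR protein kinases (CLK1 to CLK4 and the SRPK genes), hnRNP and PTBP genes, SF3 and U2AF genes, the Sm (SNRP) and LSm genes, PRPF genes, numbered RBM genes, the tissue-restricted regulators of the MBNL and NOVA kind, and the DDX and DHX helicases. Symbols with a hyphen and the RNA sensors DDX58, DDX60, DDX60L and DHX58 were left out. By this rule, which uses symbols and no measured value, 52 of 8579 genes were members. They comprised 14 RBM genes, 8 hnRNP and PTBP genes, 8 LSm genes, 7 DDX genes, 5 Sm genes, 3 SR protein kinases, 3 PRPF genes, 2 tissue-restricted regulators, 1 U2AF gene and 1 DHX gene. By GENCODE v29, 40 of the 52 are protein-coding and 12 are pseudogenes, so the symbols take in copies that need not make a protein. The SR proteins themselves (SRSF genes) and HNRNPA1 were not analysed here. The cells were A375, an established human melanoma line with an activated BRAF kinase. All 4 groups were treated for 72 h: COMBO received 2.5 µM SEL201 together with 50 nM OTX015, SEL201 received the first agent at that dose, OTX015 received the second at that dose, and UNTREATED received DMSO, the solvent. Each group had 3 libraries, numbered 1 to 3. SEL201 inhibits MNK1 and MNK2, kinases of the translation factor eIF4E, and OTX015 blocks the bromodomains by which BET proteins bind acetylated chromatin. The study is of 1 cell line at 1 dose of each agent and 1 time.

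Introns are removed from pre-mRNA by the spliceosome, which is built anew on each intron from small nuclear ribonucleoproteins (snRNPs) carrying rings of Sm or LSm proteins. Helicases of the DEAD and DEAH families remodel its RNA contacts, PRPF proteins bring in or activate its subunits, and hnRNP, RBM, MBNL, NOVA and PTBP proteins bind the transcript and shift the choice of splice sites. CLK and SRPK kinases phosphorylate SR proteins and so set where these reside and what they bind. MNK kinases are known to phosphorylate hnRNP A1, and BET proteins are known as coactivators of transcription. The table gives reads per gene, so it shows how much RNA of each factor was present and not how any transcript was spliced.

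The promoters of 4 members are shown because the results turn on these genes: CLK1 and CLK4 moved together under SEL201, and LSM11 and MBNL3 had the largest falls in COMBO among protein-coding members. Each sequence runs 5′ to 3′ on the strand of its gene from 250 bases before to 50 bases after the start of the gene, from RefSeq on GRCh38.p14. Coordinates are chr2:200864609-200864908 (minus strand) for CLK1, chr5:178627001-178627300 (minus strand) for CLK4, chr5:157743462-157743761 (plus strand) for LSM11 and chrX:132489986-132490285 (minus strand) for MBNL3. Capitals mark the GC box GGGCGG on either strand (read as CCGCCC where it lies on the opposite strand) and the E-box CACGTG.
CLK1: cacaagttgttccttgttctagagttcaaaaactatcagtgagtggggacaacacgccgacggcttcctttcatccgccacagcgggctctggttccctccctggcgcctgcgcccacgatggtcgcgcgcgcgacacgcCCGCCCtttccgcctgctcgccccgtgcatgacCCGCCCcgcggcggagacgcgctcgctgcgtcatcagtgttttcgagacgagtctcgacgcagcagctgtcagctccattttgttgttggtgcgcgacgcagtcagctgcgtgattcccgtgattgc
CLK4: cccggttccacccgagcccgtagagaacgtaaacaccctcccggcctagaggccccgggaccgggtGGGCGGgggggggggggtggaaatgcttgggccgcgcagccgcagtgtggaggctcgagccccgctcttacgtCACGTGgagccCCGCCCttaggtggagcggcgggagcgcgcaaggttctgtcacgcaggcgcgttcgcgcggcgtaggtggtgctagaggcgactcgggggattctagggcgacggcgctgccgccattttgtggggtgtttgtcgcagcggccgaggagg
LSM11: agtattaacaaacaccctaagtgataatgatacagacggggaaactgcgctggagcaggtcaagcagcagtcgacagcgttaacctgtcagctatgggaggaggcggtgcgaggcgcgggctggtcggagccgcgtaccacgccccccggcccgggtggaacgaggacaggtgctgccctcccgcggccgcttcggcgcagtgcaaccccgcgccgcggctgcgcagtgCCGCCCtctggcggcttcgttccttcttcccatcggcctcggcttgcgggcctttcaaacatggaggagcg
MBNL3: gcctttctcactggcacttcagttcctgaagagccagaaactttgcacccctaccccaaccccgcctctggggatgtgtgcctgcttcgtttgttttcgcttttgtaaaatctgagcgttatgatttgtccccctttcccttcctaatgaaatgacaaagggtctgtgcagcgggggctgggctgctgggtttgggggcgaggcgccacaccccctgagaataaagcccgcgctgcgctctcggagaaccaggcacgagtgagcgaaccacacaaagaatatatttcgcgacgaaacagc
The CLK1 window held 2 GC boxes on the opposite strand, whose first printed bases lie 110 and 77 bases before the start. The CLK4 window held a GC box 184 bases before the start, an E-box 111 bases before it and a GC box on the opposite strand 100 bases before it. LSM11 had 1 GC box on the opposite strand 21 bases before the start, and MBNL3 had none of the 6 motifs searched.

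Across the 34 members with a promoter in the RefSeq table, GGGCGG was present in 21 promoters (61.8%), against 68.3% of 5478 protein-coding genes of the count table. CCAAT was present in 12 members (35.3%, against 36.4%), the ETS core CCGGAAG in 5 (14.7%, against 16.1%), CACGTG in 3 (8.82%, against 9.09%), TATAAA in 3 (8.82%, against 5.84%) and TGACGTCA in 2 (5.88%, against 2.9%), each searched on both strands. The 3 members with CACGTG were CLK4, DHX35 and RBM15. Median GC content was 61.3% in the members' promoters and 65% in the table's. These shares describe letters in a window, and no test was made of them.

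All 52 members passed the filter on low counts, and the lowest count of any member in any library was 61. Mean counts per member ran from 106.2 to 7898.6, within the 78.7 to 9158.7 of the whole table, and 28 members averaged at least 100 CPM (counts scaled to 1 common library size, here over the 8579 genes after TMM scaling) while 10 averaged under 10 CPM. Library totals over these genes were 15146071 to 23247709 (COMBO), 16382375 to 22626418 (SEL201), 18917153 to 21834086 (OTX015) and 20346729 to 24111541 (UNTREATED), and they are not the sequencing depth. The members took 0.7% to 0.737% of the counts of every library. Of the markers of the melanocyte lineage, MITF, S100B, PMEL and MLANA were measured, 4 of 8, with a summed level of 251.5 to 281.2 CPM in the COMBO libraries, 208.5 to 243.4 CPM under SEL201, 239.3 to 258 CPM under OTX015 and 220 to 254 CPM in UNTREATED. MITF, the lineage's transcription factor, was 136.52 to 186.61 CPM over all libraries, whereas the pigment-cell genes PMEL and MLANA stayed at or below 7.58 CPM. The sum hides opposite directions. Against UNTREATED, MITF was lower in COMBO (log2 change -0.174, adjusted p 0.0297 by edgeR), SEL201 (-0.242, adjusted p 0.0144) and OTX015 (-0.236, adjusted p 0.00711). S100B was higher in COMBO (0.936, adjusted p 3.38e-06 by edgeR), SEL201 (0.371, adjusted p 0.0223) and OTX015 (0.746, adjusted p 5.1e-05). MLANA was higher in COMBO alone (0.645, adjusted p 0.00692 by edgeR), and PMEL was not called. Markers listed for other cell types that were measured (4 of 6 fibroblast, 2 of 5 epithelial, 1 of 5 immune and 0 of 3 endothelial) included COL1A1, PDGFRB, LUM, DCN, KRT8, KRT14 and LYZ. The fibroblast list summed to 63.8 to 65.6 CPM in the COMBO libraries, 99.2 to 111 CPM under SEL201, 74 to 80.8 CPM under OTX015 and 124.2 to 163.5 CPM in UNTREATED. The epithelial list summed to 135.1 to 138 CPM in the COMBO libraries, 198.1 to 213.2 CPM under SEL201, 159 to 175.9 CPM under OTX015 and 348 to 380.4 CPM in UNTREATED. LYZ, the immune marker, was 19.5 to 22.6 CPM in the COMBO libraries, 29.3 to 32.4 CPM under SEL201, 21.3 to 24.3 CPM under OTX015 and 39.2 to 50.2 CPM in UNTREATED. NGFR and SOX9, 2 of 4 markers of dedifferentiated melanoma, summed to 56.3 to 71.6 CPM in the COMBO libraries, 43.1 to 63 CPM under SEL201, 60.6 to 72.2 CPM under OTX015 and 71.9 to 111.7 CPM in UNTREATED. All libraries are of the A375 line, so these levels are not read as shares of other cell types. The part of these markers in the results below was not tested. Bulk RNA does not tell fewer expressing cells from less RNA per cell.

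The splicing and helicase genes moved modestly and in both directions. In COMBO against UNTREATED, 11 of the 52 members were higher and 11 lower by edgeR's quasi-likelihood test at an adjusted p under 0.05, where 28.3% of all genes were called higher and 29.6% lower. OTX015 had 3 members higher, where 23.3% of all genes were called, and 8 lower, where 24.7% were. Scaled by library totals alone it had 7 higher and 6 lower, where 2094 and 2040 of 8579 genes were called. SEL201 had 2 members higher (10.1% of all genes) and 1 lower (11.1% of all genes), and 2 higher and 2 lower with RLE scaling or DESeq2. RLE scaling then called 853 of 8579 genes higher and 963 lower, and DESeq2 945 and 1067. The median log2 change of the members was -0.01 in COMBO, -0.02 in SEL201 and 0.01 in OTX015, and that of all genes lay between 0 and 0.002 in the 3 comparisons. As a share of the members, the calls were 42.3% in COMBO, 21.2% in OTX015 and 5.77% in SEL201. No member was called with a change of at least 2-fold in any of these comparisons, whereas 8.84% of all genes were in COMBO, 5.22% in OTX015 and 1.4% in SEL201. In COMBO the called rises spanned 1.11-fold to 1.52-fold and the called falls 1.07-fold to 1.46-fold. Library ranges of COMBO and UNTREATED did not overlap for 9 of the 11 rises and for all 11 falls. The matching share among all called genes was not computed, so these counts show nothing particular to the members. The 30 members not called had log2 changes between -0.31 and 0.33.

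**Figure D1:**
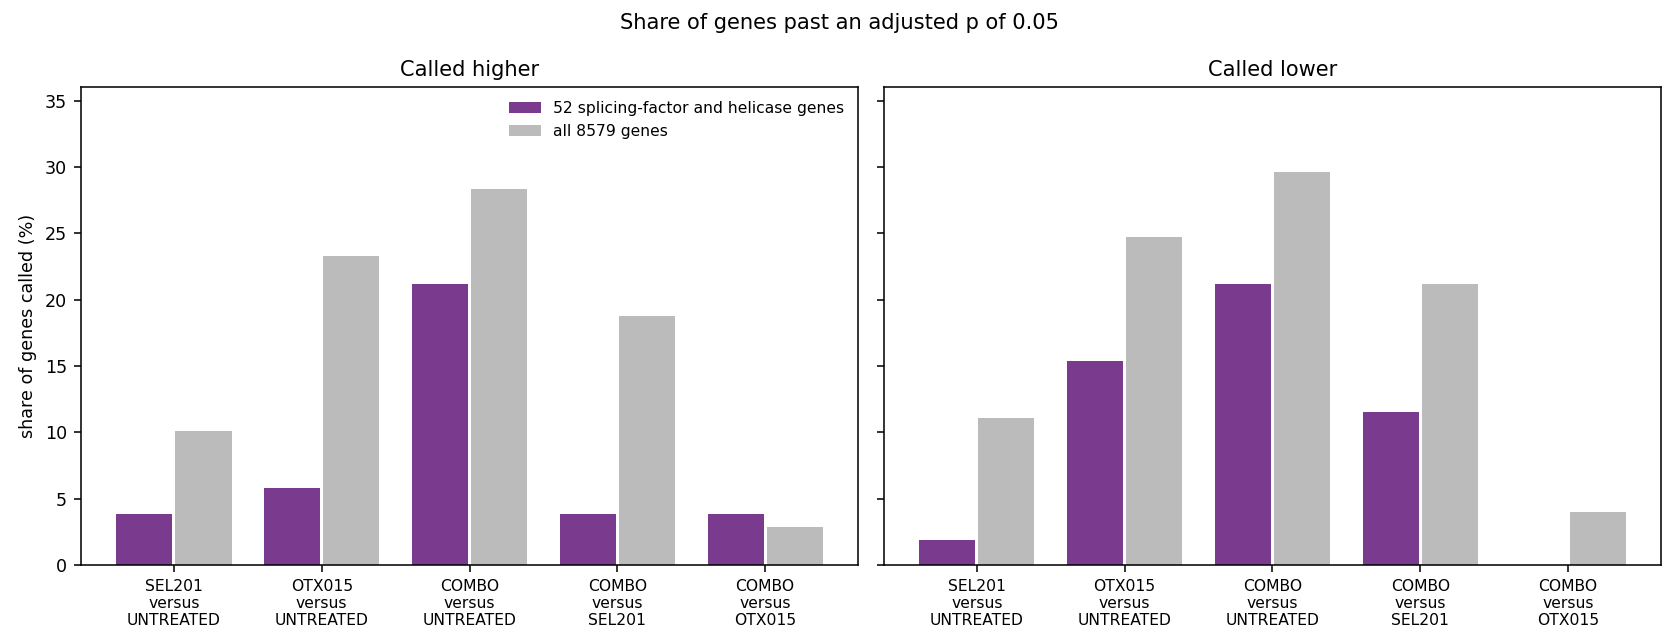
Share of genes called higher (left) or lower (right) at an adjusted p under 0.05 in percent, for the 52 splicing-factor and helicase genes (purple) and all 8579 genes (grey), in 5 comparisons. The members' bar is the shorter one in each comparison and direction except COMBO versus OTX015, higher, which holds the 2 kinases CLK1 and CLK4.

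Libraries with the same number resembled each other, and fitting the number as a block changed several counts. With the block, SEL201 against UNTREATED had 4 members higher (18% of all genes were then called higher) and 4 lower (19.1%), and OTX015 had 11 higher (29.7%) and 9 lower (29.9%). COMBO had 15 higher and 12 lower with the block, where 2876 and 2934 of 8579 genes were called. The members added were, in SEL201, DDX12P and DDX59 higher with MBNL3, RBM47 and RBM7 lower. In OTX015, they were CLK1, CLK4, DDX12P, DDX39B, DDX51, HNRNPA1L2, LSM12 and RBM4B higher with RBM41 lower. In COMBO, they were DDX39B, DDX59, LSM8 and SNRPGP15 higher with RBM15 lower. Most of these were also called under another change of the fit, such as leaving out libraries. The exceptions were DDX59 and RBM7 in SEL201, CLK4 in OTX015 and SNRPGP15 in COMBO. Values with the block are given below where they change a call.

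**Figure D2:**
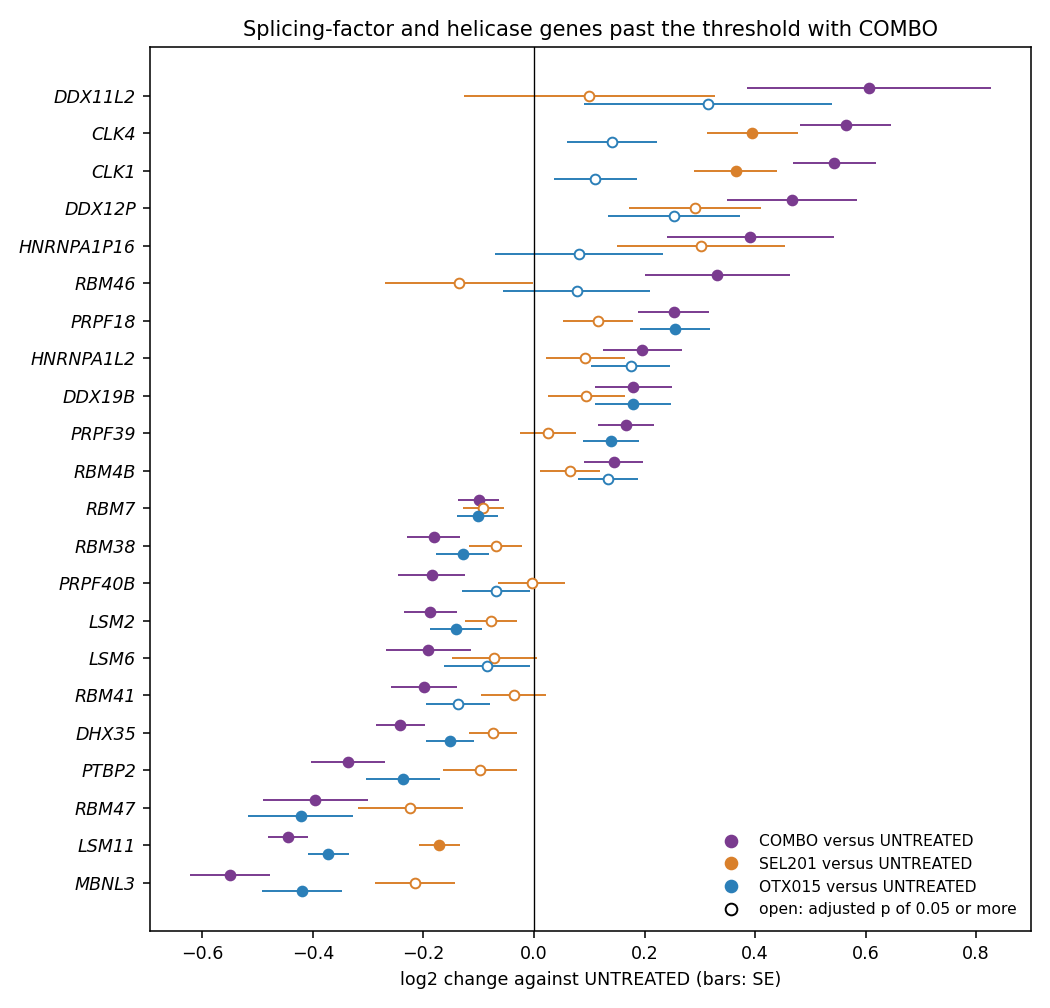
Log2 change against UNTREATED (horizontal axis, with bars of 1 SE) of the 22 members past the threshold in COMBO, for COMBO (purple), SEL201 (orange) and OTX015 (blue), each from 3 libraries per group. Filled points passed an adjusted p of 0.05 and open points did not; CLK1 and CLK4 are the 2 members filled for SEL201 on the right, and LSM11 is the member filled in all 3 comparisons.

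Among the SR protein kinases, CLK1 and CLK4 rose with SEL201 and in COMBO. CLK1 had 292, 314 and 291 CPM in the COMBO libraries, 239, 275 and 280.1 CPM in SEL201, 196, 228 and 242 CPM in OTX015, and 196, 204 and 216 CPM in UNTREATED. Every COMBO and SEL201 library therefore lay above every UNTREATED library, while OTX015 overlapped UNTREATED. The log2 change of CLK1 against UNTREATED was 0.54 in COMBO (SE 0.075, adjusted p 2.52e-05 by edgeR) and 0.37 in SEL201 (SE 0.075, adjusted p 0.00351). In OTX015 it was 0.11 (SE 0.075, adjusted p 0.246 by edgeR, and 0.0339 with the block).

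CLK4, a kinase of the same family, had 139, 153 and 147 CPM in COMBO, 114, 134 and 143 CPM in SEL201, 98.9, 112 and 117 CPM in OTX015, and 94.2, 101 and 102 CPM in UNTREATED. Its group means stood in the same order as those of CLK1, and COMBO and SEL201 were again clear of UNTREATED. The log2 change of CLK4 was 0.56 in COMBO (SE 0.082, adjusted p 3.73e-05 by edgeR), 0.4 in SEL201 (SE 0.082, adjusted p 0.00351) and 0.14 in OTX015 (SE 0.082, adjusted p 0.174, and 0.0181 with the block). The CPM of CLK1 divided by that of CLK4, which is not corrected for length and serves only to compare libraries, was 1.96 to 2.12 in all 12 libraries. SRPK3, a kinase best known from muscle, was low at 13.8, 14.7 and 21.5 CPM in COMBO and 14, 14.4 and 22.1 CPM in UNTREATED, with a log2 change of -0.02 (SE 0.208, adjusted p 0.936 by edgeR). The groups overlapped, and the library numbered 3 stood high in both.

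**Figure D3:**
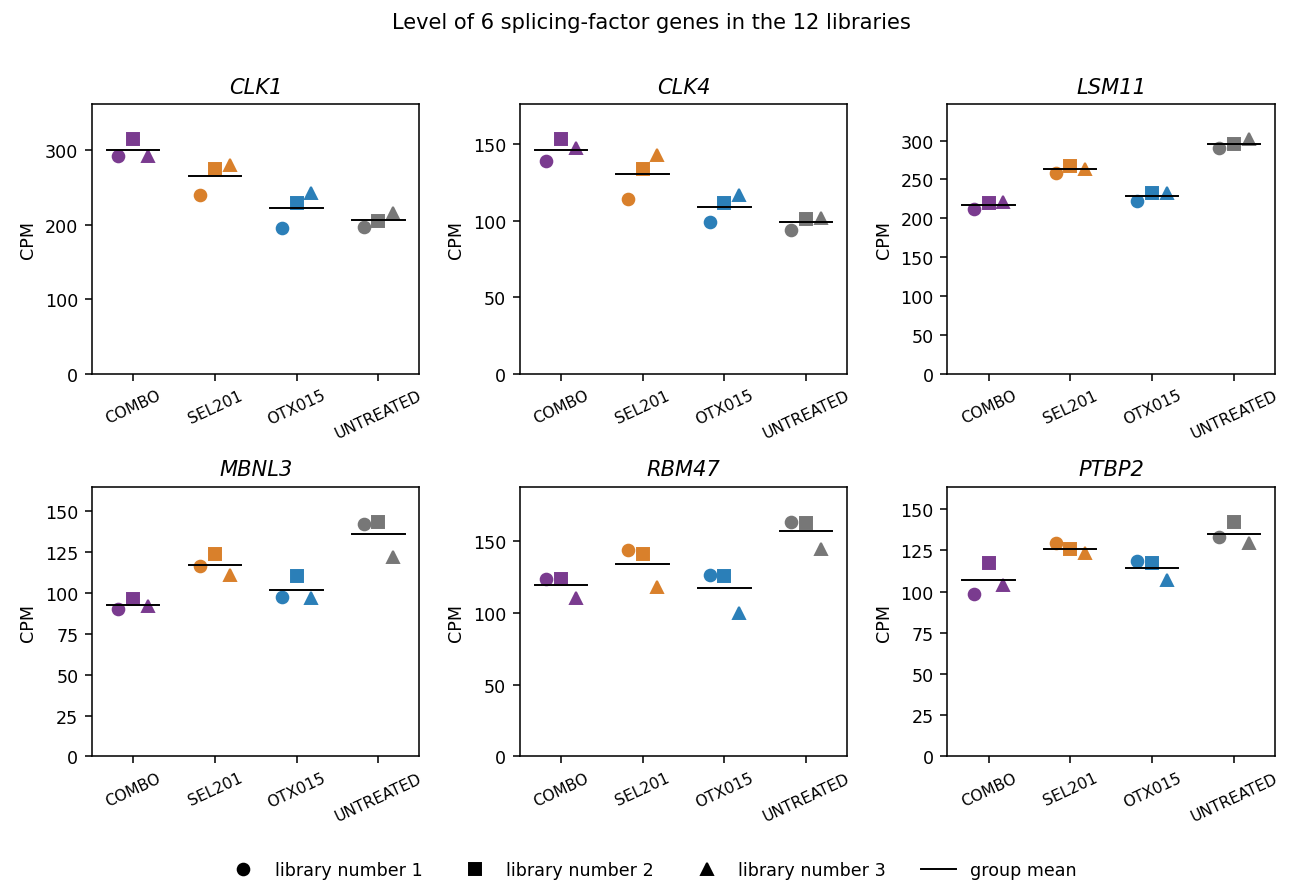
Level in CPM (vertical axes from 0) of CLK1, CLK4, LSM11, MBNL3, RBM47 and PTBP2 in each of 12 libraries, by group, with the library number as the marker shape and the group mean of 3 as a line. CLK1 and CLK4 stand high in COMBO and SEL201, and LSM11, MBNL3, RBM47 and PTBP2 stand highest in UNTREATED, with all COMBO libraries under all UNTREATED libraries.

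Of the LSm genes, 3 of 8 fell in COMBO (37.5%, against 29.6% of all genes) and 0 rose (against 28.3%). LSM11 fell in every treated group: it belongs with LSM10 to the U7 snRNP, which cuts the 3′ ends of replication-dependent histone pre-mRNAs. Its level was 212, 220 and 221 CPM in COMBO, 259, 268 and 263 CPM in SEL201, 222, 232 and 232 CPM in OTX015, and 291, 296 and 302 CPM in UNTREATED. The 3 SEL201 libraries lay between those of UNTREATED and those of the other groups without overlap, and the COMBO libraries lay just under those of OTX015. The log2 change was -0.45 in COMBO (SE 0.037, adjusted p 1.83e-07 by edgeR), -0.17 in SEL201 (SE 0.037, adjusted p 0.00477) and -0.37 in OTX015 (SE 0.037, adjusted p 2.14e-06). LSM10, the partner of LSM11 in the U7 ring, was 358, 347 and 332 CPM in COMBO and 345, 346 and 347 CPM in UNTREATED. Its groups overlapped, with a log2 change of 0.001 (SE 0.036, adjusted p 0.979 by edgeR).

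LSM2, LSM6 and LSM8 belong to the ring on U6 snRNA, and LSM1 takes the place of LSM8 in the cytoplasmic ring that promotes decay of mRNA. LSM2 was 275, 263 and 245 CPM in COMBO, 289, 276 and 279.6 CPM in SEL201, 277, 269 and 263 CPM in OTX015, and 311, 294 and 287 CPM in UNTREATED. All COMBO and OTX015 libraries were under the lowest UNTREATED library, with log2 changes of -0.19 in COMBO (SE 0.048, adjusted p 0.00356 by edgeR) and -0.14 in OTX015 (SE 0.047, adjusted p 0.0245). LSM6 was 259, 231 and 213 CPM in COMBO, against 267, 259.9 and 277 CPM in UNTREATED, a log2 change of -0.19 (SE 0.077, adjusted p 0.0451 by edgeR). The groups were just apart, and the call was lost in 9 of 20 alternatives: without the 4 libraries numbered 3, and on leaving out any UNTREATED library, SEL201 library 1, OTX015 library 1 or 2, or COMBO library 2 or 3, with adjusted p 0.0505 to 0.182 by edgeR. Without COMBO library 3 its log2 change was -0.13 (adjusted p 0.182 by edgeR). The OTX015 call of LSM2 was lost without UNTREATED library 1 or OTX015 library 2 or 3 (adjusted p 0.0586 to 0.126 by edgeR). LSM8 had 401, 390 and 368 CPM in COMBO and 347, 367 and 364 CPM in UNTREATED, a log2 change of 0.1 (SE 0.046, adjusted p 0.0675 by edgeR, and 0.0162 with the block). LSM1 had a log2 change of -0.07 (SE 0.052, adjusted p 0.264 by edgeR) and LSM12, an LSm protein outside these rings, 0.01 (SE 0.048, adjusted p 0.867 by edgeR) in COMBO.

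MBNL3, a muscleblind protein that regulates splicing and is known to restrain muscle differentiation, had the largest log2 fall of all members. It was 90.2, 96.2 and 92.1 CPM in COMBO, 116, 124 and 111 CPM in SEL201, 97.5, 110.3 and 96.8 CPM in OTX015, and 142, 143 and 122 CPM in UNTREATED. COMBO and OTX015 lay wholly under UNTREATED, while SEL201 overlapped it through UNTREATED library 3. The log2 change was -0.55 in COMBO (SE 0.073, adjusted p 1.79e-05 by edgeR), -0.42 in OTX015 (SE 0.073, adjusted p 0.000304) and -0.22 in SEL201 (SE 0.073, adjusted p 0.0502, and 0.00105 with the block). MBNL3 was also called lower in SEL201 with RLE scaling, with a filter of 10 CPM in 3 libraries and with DESeq2 (adjusted p 0.0276 by DESeq2). It was likewise called without UNTREATED library 3, SEL201 library 2, OTX015 library 2 or the 4 libraries numbered 3. Adjusted p was 0.0125 to 0.0497 by edgeR in these fits. NOVA1, a regulator best known from neurons, was 29.6, 35 and 29 CPM in COMBO, 37.2, 41.2 and 30.9 CPM in SEL201, and 34.2, 31.8 and 33.2 CPM in UNTREATED. Its groups overlapped, with a log2 change in COMBO of -0.08 (SE 0.112, adjusted p 0.56 by edgeR).

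PTBP2, the neuronal relative of the polypyrimidine tract-binding protein, which represses exons, fell in OTX015 and COMBO. Its level was 98.6, 118 and 104 CPM in COMBO, 129, 126 and 123 CPM in SEL201, 119, 117 and 107 CPM in OTX015, and 133, 142 and 129 CPM in UNTREATED. All COMBO and OTX015 libraries were lower than all UNTREATED libraries. The log2 change was -0.34 in COMBO (SE 0.067, adjusted p 0.000623 by edgeR), -0.24 in OTX015 (SE 0.067, adjusted p 0.00964) and -0.1 in SEL201 (adjusted p 0.339 by edgeR). The other 7 genes of the hnRNP group are copies of HNRNPA1, HNRNPA3, HNRNPC and HNRNPK, and reads of near-identical parents could have been assigned to them. HNRNPA1L2, an intronless relative of HNRNPA1, had 47.3, 43.9 and 49.6 CPM in COMBO and 40.7, 41.1 and 41 CPM in UNTREATED, a log2 change of 0.2 (SE 0.071, adjusted p 0.029 by edgeR). The pseudogene HNRNPA1P16 had 10.7, 11.7 and 10.9 CPM in COMBO and 7.89, 8.88 and 8.58 CPM in UNTREATED, a log2 change of 0.39 (SE 0.151, adjusted p 0.0387 by edgeR). Both were higher in every COMBO library than in any UNTREATED library, but each call was lost in 7 of 20 alternatives. That of HNRNPA1L2 was lost without any 1 of the UNTREATED libraries, COMBO library 1 or 3, or the 4 libraries numbered 3, and with only the compared groups (adjusted p 0.0523 to 0.144 by edgeR). That of HNRNPA1P16 was lost without any 1 of the COMBO or UNTREATED libraries or the 4 numbered 3 (adjusted p 0.0568 to 0.115 by edgeR). HNRNPA1P16 also lies inside the gene SRR on the same strand, so their reads may not be separable.

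Among the 14 RBM genes, 4 fell in COMBO (28.6%, against 29.6% of all genes) and 2 rose (14.3%, against 28.3%). RBM47, a cofactor of C-to-U RNA editing that also binds 3′ ends of mRNAs, was 124, 124 and 111 CPM in COMBO, 144, 141 and 118 CPM in SEL201, 127, 126 and 99.9 CPM in OTX015, and 164, 163 and 145 CPM in UNTREATED. Within each group the library numbered 3 was the lowest, and every treated library was under the lowest UNTREATED library. The log2 change was -0.4 in COMBO (SE 0.095, adjusted p 0.00249 by edgeR), -0.42 in OTX015 (SE 0.095, adjusted p 0.00216) and -0.22 in SEL201 (SE 0.095, adjusted p 0.112, and 0.00022 with the block). RBM38, which binds and stabilises the p21 mRNA, was 262, 288 and 292 CPM in COMBO, 291, 289 and 294 CPM in OTX015, and 314, 307 and 334 CPM in UNTREATED. It fell by 0.18 in log2 terms in COMBO (SE 0.048, adjusted p 0.00468 by edgeR) and by 0.13 in OTX015 (SE 0.048, adjusted p 0.038), with no overlap with UNTREATED. The OTX015 call of RBM38 was lost without any 1 of the OTX015 libraries, UNTREATED library 1 or 3, or the 4 libraries numbered 3, and with library totals alone (adjusted p 0.0524 to 0.162 by edgeR).

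RBM41, which binds RNA of the minor spliceosome, was 120.4, 111 and 117 CPM in COMBO and 136, 142 and 122 CPM in UNTREATED, a log2 change of -0.2 (SE 0.059, adjusted p 0.0094 by edgeR). RBM7, an adaptor that brings RNA to the nuclear exosome, was 288, 282 and 279.9 CPM in COMBO and 304, 313 and 295 CPM in UNTREATED, a log2 change of -0.1 (SE 0.037, adjusted p 0.0312 by edgeR). In both genes the lowest UNTREATED library exceeded the highest COMBO library, by little in RBM41. The RBM41 call was lost without UNTREATED library 2 (-0.15, adjusted p 0.0534 by edgeR). The RBM7 call was lost in 6 of 20 alternatives: without COMBO library 2 or 3, UNTREATED library 1 or 2, or the 4 libraries numbered 3, and with only the compared groups (adjusted p 0.0552 to 0.125 by edgeR). In OTX015, where RBM7 was also called, the call was lost without OTX015 library 1 or 2 or UNTREATED library 1 or 2, with only the compared groups and with library totals alone (adjusted p 0.0537 to 0.131 by edgeR). RBM46, known from germ cells, was 21.6, 19.9 and 22.9 CPM in COMBO, 17, 13.2 and 16.3 CPM in SEL201, and 17.3, 14.9 and 19 CPM in UNTREATED. Each COMBO library was above all of SEL201 and UNTREATED, and the log2 change in COMBO was 0.33 (SE 0.132, adjusted p 0.0446 by edgeR), a call lost in 5 of 20 alternatives: without COMBO library 1 or 3, UNTREATED library 1 or 2, or the 4 libraries numbered 3 (adjusted p 0.0603 to 0.174 by edgeR). RBM4B, a splicing regulator, was 282, 266 and 279.5 CPM in COMBO and 245, 242 and 261 CPM in UNTREATED, a log2 change of 0.14 (SE 0.054, adjusted p 0.0344 by edgeR). This call was lost in 4 of 20 alternatives, without COMBO library 1 or 3 or UNTREATED library 1 or 2 (adjusted p 0.08 to 0.111 by edgeR). RBM4B overlaps its close relative RBM4 on the opposite strand, and whether counting used the strand is not given in the sources used here. RBM4 itself was 47.7, 46.7 and 49.3 CPM in COMBO and 45.8, 44.4 and 51.6 CPM in UNTREATED, with overlapping groups (adjusted p 0.867 by edgeR).

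The remaining 8 RBM genes were not called in COMBO. RBM15, which guides the m6A methyltransferase to RNA, had a log2 change of -0.09 (SE 0.081, adjusted p 0.345 by edgeR, and 0.023 with the block). RBM20, the splicing regulator of titin in heart, had -0.19 (SE 0.112, adjusted p 0.154 by edgeR), with 28, 28.6 and 29.6 CPM in COMBO just under 35.4, 31.9 and 31.2 CPM in UNTREATED. RBM5, a splicing regulator of apoptosis genes, had 0.05 (SE 0.084, adjusted p 0.622 by edgeR), and RBM48, a factor of the minor spliceosome, had -0.09 (SE 0.045, adjusted p 0.117 by edgeR). RBM34, RBM43 and RBM45 had log2 changes of 0.05, 0.01 and -0.01, and RBM4 is given above.

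Of the 3 PRPF genes, 2 rose and 1 fell in COMBO, where 28.3% of all genes were called higher and 29.6% lower. PRPF18, a factor of the second catalytic step, was 99, 94.1 and 87.6 CPM in COMBO, 85.6, 79.7 and 90.2 CPM in SEL201, 90.4, 96.1 and 94.8 CPM in OTX015, and 77.6, 80.8 and 77.2 CPM in UNTREATED. Every COMBO and OTX015 library exceeded every UNTREATED library, with log2 changes of 0.25 in COMBO (SE 0.064, adjusted p 0.00348 by edgeR) and 0.26 in OTX015 (SE 0.064, adjusted p 0.00433). PRPF39, a protein associated with the U1 snRNP, was 234, 242 and 253 CPM in COMBO, 226, 246 and 242 CPM in OTX015, and 203, 229 and 217 CPM in UNTREATED. Its log2 change was 0.17 in COMBO (SE 0.051, adjusted p 0.0118 by edgeR) and 0.14 in OTX015 (SE 0.051, adjusted p 0.0351), though OTX015 overlapped UNTREATED. The COMBO call of PRPF39 was lost without UNTREATED library 1 (0.12, adjusted p 0.0627 by edgeR) and without the 4 libraries numbered 3 (0.14, adjusted p 0.0728 by edgeR). Its OTX015 call was lost without OTX015 library 2 or 3, UNTREATED library 1 or 3, or the 4 numbered 3, and with only the compared groups (adjusted p 0.0586 to 0.156 by edgeR). PRPF40B, the human relative of a yeast U1 snRNP protein, was 82.8, 85.5 and 81.7 CPM in COMBO and 94.6, 95.6 and 94 CPM in UNTREATED. Its log2 fall was 0.19 (-0.185, SE 0.061, adjusted p 0.0184 by edgeR), and the groups were well apart. Without COMBO library 3 the change of PRPF40B was -0.17 (adjusted p 0.0517 by edgeR).

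Of the helicases, DHX35, which is found in spliceosomes, fell. It was 271, 269.9 and 261 CPM in COMBO, 309.9, 286 and 305 CPM in SEL201, 288, 279 and 287 CPM in OTX015, and 324, 298 and 327 CPM in UNTREATED. COMBO was under all other groups, and OTX015 was under UNTREATED without overlap. The log2 change was -0.24 in COMBO (SE 0.044, adjusted p 0.000312 by edgeR), -0.15 in OTX015 (SE 0.044, adjusted p 0.0113) and -0.07 in SEL201 (SE 0.044, adjusted p 0.267). DDX19B, which releases mRNA at the nuclear pore, was 139, 145 and 122 CPM in COMBO, 138, 136 and 131 CPM in OTX015, and 116, 127 and 116 CPM in UNTREATED. It rose by a log2 change of 0.18 in COMBO (SE 0.069, adjusted p 0.0373 by edgeR) and 0.18 in OTX015 (SE 0.069, adjusted p 0.0452). COMBO overlapped UNTREATED through its library 3, and the calls were lost in 5 and 8 of 20 alternatives. In COMBO these were without COMBO library 1 or 2 or UNTREATED library 1 or 3, and with only the compared groups (adjusted p 0.0566 to 0.162 by edgeR). In OTX015 they were without any 1 of the OTX015 libraries, UNTREATED library 1 or 3, SEL201 library 3, COMBO library 1, or the 4 libraries numbered 3 (adjusted p 0.0511 to 0.129 by edgeR). The OTX015 call of DHX35 was lost without UNTREATED library 1 or 3 or the 4 libraries numbered 3 (adjusted p 0.0515 to 0.0616 by edgeR).

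Called DDX members other than DDX19B were both pseudogenes. DDX12P, a near copy of the DNA helicase gene DDX11, was 137, 149.8 and 169.6 CPM in COMBO, 119, 124 and 161 CPM in SEL201, 127, 121 and 145 CPM in OTX015, and 99.9, 105 and 125 CPM in UNTREATED. Library 3 was the highest in each group, and COMBO did not overlap UNTREATED. The log2 change was 0.47 in COMBO (SE 0.118, adjusted p 0.00367 by edgeR), and reads of DDX11 could have been counted here. With the block it was also called in SEL201 (0.29, adjusted p 3e-05 by edgeR) and OTX015 (0.26, adjusted p 5.81e-05). DDX11L2, which overlaps WASH2P on the opposite strand, was 6.03, 5.18 and 8.8 CPM in COMBO and 4.07, 3.61 and 5.36 CPM in UNTREATED. Its log2 change of 0.61 (SE 0.221, adjusted p 0.0299 by edgeR) was the largest rise of any member, but the groups overlapped and without COMBO library 3 it was 0.37 (adjusted p 0.154 by edgeR). The DDX11L2 call was also lost without UNTREATED library 1 or 2 or the 4 libraries numbered 3 (adjusted p 0.0552 to 0.114 by edgeR).

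The uncalled helicases differed in their precision. DDX28, which helps assemble mitochondrial ribosomes, had a log2 change of -0.003 in COMBO (SE 0.049, adjusted p 0.964 by edgeR), and DDX51, a factor of ribosomal RNA processing, 0.06 (SE 0.059, adjusted p 0.438 by edgeR). In OTX015 DDX51 was at 0.139 (SE 0.058, adjusted p 0.0654 by edgeR, and 0.00138 with the block). It was also called there with library totals alone, with only the compared groups, and without UNTREATED library 3, COMBO library 1 or the 4 libraries numbered 3 (adjusted p 0.0298 to 0.0492 by edgeR). DDX59 was 316, 302 and 312 CPM in COMBO and 286, 291 and 292 CPM in UNTREATED, a log2 change of 0.1 (SE 0.043, adjusted p 0.0677 by edgeR, and 0.0174 with the block). DDX39B (UAP56), which acts in spliceosome assembly and mRNA export, was 337, 351 and 452 CPM in COMBO, 307, 312 and 413 CPM in SEL201, 328, 326 and 409 CPM in OTX015, and 289, 305 and 414 CPM in UNTREATED. Library 3 was far above the others in each group, and COMBO was above UNTREATED at each number. Its log2 change was 0.18 (SE 0.151, adjusted p 0.341 by edgeR) without the block and 0.18 (adjusted p 3.87e-05) with it, and 0.21 (adjusted p 0.00157 by edgeR) without the 4 libraries numbered 3. Without UNTREATED library 3 alone it was 0.355 (adjusted p 0.0454 by edgeR). DDX39B shares sequence with a readthrough transcript of ATP6V1G2 and overlaps DDX39B-AS1 on the opposite strand.

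None of the 5 Sm genes was called against UNTREATED, except the pseudogene SNRPGP15 with the block, higher in COMBO (0.32, adjusted p 0.0369 by edgeR). They were SNRPN, the Sm protein of brain, and 4 pseudogenes, of which SNRPGP10 had the most at 26.4 to 34.7 CPM in COMBO and 27.9 to 32.6 CPM in UNTREATED. SNRPN was 7.11, 7.77 and 11 CPM in COMBO and 8.66, 10 and 10.2 CPM in UNTREATED, with overlapping groups and a log2 change of -0.17 (SE 0.176, adjusted p 0.427 by edgeR). It shares its locus with SNURF and SNHG14. U2AF1L4, a relative of the 3′ splice site factor U2AF1, was 9.56, 10.2 and 11.1 CPM in COMBO and 10.3, 9.54 and 13.8 CPM in UNTREATED, with overlapping groups and a log2 change of -0.12 (SE 0.145, adjusted p 0.492 by edgeR). SEs of these genes were 0.107 or more, so changes as small as those of LSM2 or DHX35 were not detectable in them. Over the 12 pseudogenes, 3 were higher in COMBO (25%, against 28.3% of all genes) and 0 lower (against 29.6%), and the other 9 ranged from -0.31 for SNRPEP4 (adjusted p 0.117 by edgeR) to 0.33 for SNRPGP15 (adjusted p 0.242) on the log2 scale. Over the 40 protein-coding members, 8 were higher (20%) and 11 lower (27.5%), also under the shares of all genes.

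COMBO was also compared with each agent alone, which shares its libraries with the comparisons above. Against OTX015, only CLK1 and CLK4 were called higher, where 2.9% of all genes were, and 0 members were called lower, where 4.01% were. By edgeR 4 members had an unadjusted p under 0.05 in this comparison, and the share of all genes at that p was not computed. DESeq2 also called 2 members higher and 0 lower, where 369 and 468 of 8579 genes were called. CLK1 was higher by a log2 change of 0.43 (SE 0.075, adjusted p 0.00385 by edgeR) and CLK4 by 0.42 (SE 0.081, adjusted p 0.00707), with no overlap of libraries. With the block there were 3 higher (10% of all genes) and 1 lower (12.2%), the additions being DDX12P (0.22, adjusted p 0.00174 by edgeR) and RBM20 (-0.27, adjusted p 0.0288).

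Against SEL201, COMBO had 2 members higher, where 18.8% of all genes were called, and 6 lower, where 21.2% were. With library totals alone it had 1 higher and 6 lower, where 1537 and 1874 of 8579 genes were called. LSM11 was lower by 0.27 (log2 change -0.27, SE 0.037, adjusted p 5.84e-05 by edgeR), MBNL3 had a log2 change of -0.34 (SE 0.074, adjusted p 0.00245), DHX35 -0.17 (SE 0.045, adjusted p 0.00819) and PTBP2 -0.24 (SE 0.068, adjusted p 0.0118). Libraries of the 2 groups did not overlap in any of these genes. PRPF40B and RBM41 were the other falls, and RBM46 (0.47, adjusted p 0.0129 by edgeR) and PRPF39 (0.14, adjusted p 0.0398) the rises. Leaving out 1 library ended the calls of PRPF39 (COMBO 2 or 3 or any of SEL201, adjusted p 0.0728 to 0.132 by edgeR), PRPF40B (COMBO 1 or 3, SEL201 1 or 2, adjusted p 0.0591 to 0.139), RBM46 (SEL201 2, adjusted p 0.0605) and PTBP2 (COMBO 1, adjusted p 0.0605). It ended that of RBM41 without COMBO 2 or 3, any of SEL201, OTX015 2 or UNTREATED 1 (adjusted p 0.0508 to 0.143 by edgeR), and DHX35 was lost without the 4 libraries numbered 3 (adjusted p 0.0581). CLK1 was at 0.18 (SE 0.075, adjusted p 0.0736 by edgeR, and 0.000617 with the block) and CLK4 at 0.17 (SE 0.081, adjusted p 0.115, and 0.00336 with the block). CLK1 was also called with only the compared groups and without OTX015 1 or the 4 libraries numbered 3 (adjusted p 0.0235 to 0.04 by edgeR). CLK4 was also called without SEL201 3 or the 4 libraries numbered 3 (adjusted p 0.0399 and 0.043 by edgeR). With the block 10 members were higher (26% of all genes) and 10 lower (27.4%).

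The interaction, which is what remains of the log2 change in COMBO after the log2 changes of SEL201 and of OTX015 are subtracted, called 0 members higher and 0 lower in edgeR, where 0.21% and 0.0699% of all genes were called. No member had an unadjusted p under 0.05 (0 members), a share not computed for all genes. DESeq2 called 0 members, where 87 of 8579 genes were called higher and 32 lower. For CLK1 the interaction was 0.07 (adjusted p 0.924 by edgeR) and for CLK4 0.03 (adjusted p 0.979). With the block 1 member was called higher (4.02% of all genes) and 0 lower (2.73%): RBM47, at 0.25 (adjusted p 0.0148 by edgeR), whose COMBO change of -0.4 was smaller in size than the sum of its single-agent changes.

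SEL201 and OTX015 were compared directly after the data had been seen. In SEL201 against OTX015, 3 members were higher, where 13.1% of all genes were, and 1 was lower, where 10.4% were. CLK1 (log2 change 0.25, SE 0.075, adjusted p 0.026 by edgeR) and CLK4 (0.25, SE 0.082, adjusted p 0.0368) were higher in SEL201, but each overlapped OTX015 in 1 or more libraries, and the calls were lost in 4 and 6 of 20 alternatives. For CLK1 these were without SEL201 library 2 or 3 or OTX015 library 1, and with only the compared groups (adjusted p 0.0508 to 0.111 by edgeR). For CLK4 they were without SEL201 library 2 or 3, OTX015 library 1 or 2, or the 4 libraries numbered 3, and with only the compared groups (adjusted p 0.066 to 0.151 by edgeR). LSM11 was higher in SEL201 (0.2, SE 0.037, adjusted p 0.00163 by edgeR), and LSM12 was lower (-0.22, SE 0.048, adjusted p 0.0052 by edgeR). LSM12 had 134, 139.8 and 125 CPM in SEL201, against 155, 153 and 156 CPM in OTX015, with no overlap. In the main fit neither group was called against UNTREATED for LSM12. OTX015 was called against UNTREATED for LSM12 with the block (0.11, adjusted p 0.0317 by edgeR), with library totals alone (0.12, adjusted p 0.0453) and without SEL201 library 3 (0.11, adjusted p 0.0479). With the block 6 members were higher (21.1% of all genes) and 3 lower (18.7%).

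Differences between library numbers, as well as between groups, were seen in the members and in the whole table. In 7 of the 52 members the library numbered 3 was the highest in all 4 groups: DDX12P, DDX39B, RBM15, RBM4, RBM5, SNRPGP15 and SRPK3. The share of all genes was 11.6%, so this was not particular to the members. Number 1 was the highest in 3 members (3.47% of all genes) and number 2 in 2 (6.76%). Numbers 1, 2 and 3 were the lowest in 6, 5 and 4 members (3.97%, 6.63% and 9.94% of all genes). RBM5 was 392, 333 and 395 CPM in COMBO, 383, 329.8 and 387 CPM in SEL201, 373, 328 and 392 CPM in OTX015, and 364, 333 and 384 CPM in UNTREATED. It was thus lowest in library 2 and highest in library 3 of every group. What the numbers stand for is not given in the labels, and its part in these differences was not tested. The spread between libraries of a group ranged widely among members, with the median coefficient of variation over groups at 24.8% for SRPK3 and 17% for DDX39B, against 1.18% for LSM10 and 2.09% for LSM11.

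**Figure D4:**
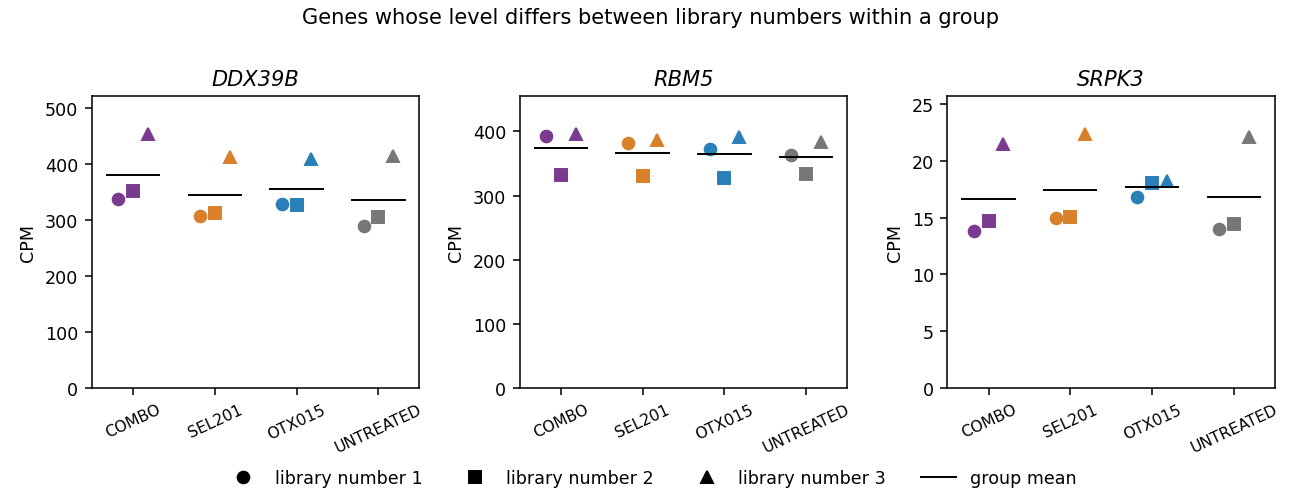
Level in CPM (vertical axes from 0) of DDX39B, RBM5 and SRPK3 in the 12 libraries by group, with the library number as the marker shape and the mean of 3 as a line. The triangle of library 3 is the highest point of each group in all 3 genes, for DDX39B at 409 to 452 CPM.

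Other genes of RNA processing were taken from 5 lists, whose counts stand beside 28.3% of all genes called higher and 29.6% lower in COMBO. Of the 11 measured among 52 further spliceosome proteins, 4 rose (36.4%) and 2 fell (18.2%) in COMBO, with a median log2 change of 0.07: CACTIN (0.37, SE 0.04, adjusted p 2.39e-06 by edgeR) and SNRNP27 of the tri-snRNP (0.31, SE 0.04, adjusted p 1.29e-05) rose, and ISY1 (-0.24, SE 0.046, adjusted p 0.000472) and the isomerase PPIL1 (-0.22, SE 0.045, adjusted p 0.000885) fell. In SEL201 1 rose and 0 fell (10.1% and 11.1% of all genes), and in OTX015 4 rose and 1 fell (23.3% and 24.7% of all genes). Of 8 measured genes of snRNP assembly, 1 rose (12.5%) and 2 fell (25%) in COMBO, both under the shares of all genes, with a median of -0.06. The falls were SNUPN, the import adaptor of snRNPs (-0.46, SE 0.049, adjusted p 2.23e-06 by edgeR), and COIL, the scaffold of Cajal bodies (-0.3, SE 0.033, adjusted p 3.01e-06), and the rise was LARP7, of the 7SK particle (0.15, SE 0.049, adjusted p 0.0148).

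Of 7 measured splicing regulators outside the member families, 2 rose (28.6%, against 28.3% of all genes) and 1 fell (14.3%, against 29.6%) in COMBO, with a median of 0.04. MSI1, an RNA-binding protein of neural progenitors, fell by 1.41 in log2 terms (SE 0.198, adjusted p 2.85e-05 by edgeR), a larger change than that of any member, and the kinase DYRK1A rose by 0.19 (SE 0.052, adjusted p 0.0071). Of 5 measured genes of the exon junction complex, decay and export, 0 rose (against 28.3% of all genes) and 2 fell (40%, against 29.6%) with a median of 0.04, namely MAGOHB (-0.31, SE 0.047, adjusted p 6.05e-05 by edgeR) and the export factor NXT1 (-0.2, SE 0.053, adjusted p 0.00527). Of 3 other RNA helicases 0 were called, and EIF4A1, the helicase of translation initiation, had a log2 change of 0.3 with a wide error (SE 0.211, adjusted p 0.239 by edgeR). The median of all genes in this comparison was 0.002.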

How the data were processed

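RNA of A375 cells was measured in 12 libraries, 3 in each of 4 groups, from stranded poly(A) preparations read as pairs of 150 bases, per the labels' protocols. The authors deposited raw counts per gene. Named in the submitters' processing notes are hg19, STAR 2.5.4b, featureCounts, SAMtools 1.9, Trimmomatic, FastQC and DESeq2, with no role for any of them. For the annotation and the strand setting of counting, nothing is given in the sources used here. Because the table spans a limited range of levels, CPM values are relative to its 8579 genes, and genes absent from it were not analysed here. Since the labels do not call libraries separate cultures, p-values reflect only how these libraries vary, possibly for technical reasons. Replicates of a group differed beyond sampling noise (chi-square per degree of freedom of 6.34 or more).

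Counts were tested in R 4.3.3 with edgeR 4.0.16 (TMM, filterByExpr at a count of 10, glmQLFit and glmQLFTest) on group means over all 12 libraries, with Benjamini-Hochberg adjustment over 8579 genes at 0.05. The SE was obtained by dividing the log2 change by the root of F. There were 6 comparisons, and SEL201 against OTX015 was added after the data were seen. Members, lists and comparisons were chosen with earlier results of these data known. Members given per library are the called ones with the largest changes and no overlap between groups, the 3 with the lowest p of each family, and the 4 with the lowest p of each COMBO comparison with a single agent. Other members are given by their log2 change. Of the other lists, up to 4 genes with the lowest p are named.

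Deviations from group means correlated at 0.26 to 0.57 in the 18 same-numbered pairs and at -0.46 to 0.19 in the 36 others. The number was therefore fitted as a block in 1 alternative, a pairing read from the data that no label states. The main tests did not pair the libraries. The biological coefficient of variation was 4.35% with a replicate block and 7.92% without it. The 20 alternatives were RLE scaling, library totals alone, DESeq2 1.42.0, no filter, a filter of 10 CPM in 3 libraries, the block, only the compared groups, leaving out each library, and leaving out the 4 libraries numbered 3. The main filter removed no gene, so the alternative with no filter repeated the main fit and could not change a call. Only the main fit was run on simulated counts, read for COMBO and SEL201 against UNTREATED. Those counts had no effect of the library number, and the alternatives and the promoter steps were not tried in this way. Symbols of all 52 members matched GENCODE v29, used for gene types and overlaps alone because it is on another build. Promoters of 34 members came from RefSeq on GRCh38.p14, and no coordinate was moved between builds.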

Additional observations from a re-analysis of the deposited data

How the results depend on the processing

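In COMBO against UNTREATED, 11 calls held under every alternative run: the rises of CLK1, CLK4, PRPF18 and DDX12P and the falls of MBNL3, LSM11, RBM47, PTBP2, DHX35, LSM2 and RBM38. The share of all called genes that held in this way was not computed, so this count shows nothing particular to the members. No member that was called changed direction under any alternative. Scaling shifted the median of all genes by less than 0.1 on the log2 scale. Members lower in SEL201 numbered 2 with RLE scaling, 2 with DESeq2 and 2 with the stricter filter (7638 genes tested), against 1. All genes called lower numbered 963, 1067 and 939 in turn, against 953. With library totals alone, 7 members were higher and 6 lower in OTX015, against 3 and 8, and 1 was higher and 6 lower in COMBO against SEL201, against 2 and 6. All genes called were then 2094 higher and 2040 lower in OTX015, against 1998 and 2117. In COMBO against SEL201 they were 1537 and 1874, against 1615 and 1823. With the replicate block, counts against UNTREATED were 4 higher and 4 lower in SEL201 (18% and 19.1% of all genes) and 11 higher in OTX015 (29.7%). In COMBO they were 15 higher and 12 lower (2876 and 2934 of 8579 genes), against 11 and 11. With the block COMBO had 10 higher and 10 lower against SEL201 (26% and 27.4% of all genes) and 1 lower against OTX015 (12.2%). The interaction then had 1 higher (4.02%), and SEL201 against OTX015 had 6 higher (21.1%) and 3 lower (18.7%). Apart from the calls these counts and the report give, the block changed no other call in the comparisons against UNTREATED. Without the 4 libraries numbered 3, SEL201 had 3 members lower, and COMBO had 6 higher against SEL201 and 1 lower against OTX015. Of 8579 genes, 953, 1493 and 394 were then called in turn. With only the 2 groups compared, SEL201 against OTX015 had 1 member higher, where 1044 of 8579 genes were called. The interaction could not be fitted in this way because it needs all 4 groups.

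Leaving out 1 library at a time gave 4 to 12 members higher and 8 to 11 lower in COMBO, 1 to 4 higher and 4 to 8 lower in OTX015, 1 to 2 lower in SEL201, and 1 to 3 higher in COMBO against SEL201. Of 8579 genes, 2196 to 2436 were then called higher and 2327 to 2553 lower in COMBO. In OTX015 these were 1710 to 2045 and 1862 to 2147. Genes called lower in SEL201 were 722 to 1011, and those higher in COMBO against SEL201 were 1312 to 1645. Members higher in COMBO were 4 without UNTREATED 1, 6 without UNTREATED 2, 6 without COMBO 1 and 7 without COMBO 3. All genes called higher were then 2196, 2206, 2213 and 2277, against 2426 genes and 11 members with every library. In OTX015, 4 members were lower without UNTREATED 1 and 5 without OTX015 2, and 1 was higher without UNTREATED 1 or without OTX015 3. All genes called were 1862 and 1900 lower, against 2117, and 1747 and 1814 higher, against 1998. In COMBO against SEL201, 1 member was higher without SEL201 1 or without SEL201 2 (1312 and 1402 of all genes, against 1615). In SEL201, 2 members were lower without UNTREATED 3, SEL201 2 or OTX015 2 (798, 778 and 929 of all genes, against 953). SEL201 against OTX015 had 1 to 4 members higher, and 847 to 1175 of all genes. It had 1 member higher without SEL201 2, SEL201 3 or OTX015 1 (927, 963 and 847 of all genes, against 1125). The cause of these shifts was not tested.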
